A study of Mus musculus with 5 samples.

Results

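The nuclear-encoded genes of the mitochondrial respiratory chain were examined in macrophages sorted from the mouse aorta. Members were all genes whose symbol begins with Nduf, Uqcr, Cox4, Cox5, Cox6, Cox7, Cox8 or Atp5, together with Sdha, Sdhb, Sdhc, Sdhd and Cyc1. Of 105 such symbols, 7 pseudogene symbols ending in -ps or in -ps and a number were dropped, and 5 more had fewer than 10 reads over the 5 libraries (Ndufa11b, Cox8b, Cox8c, Cox7b2 and Ndufb4c). This left 93 members of the 41388 genes in the tables: 38 of complex I, 4 of complex II, 9 of complex III, 15 of complex IV, 16 of complex V (ATP synthase), 8 complex I assembly factors (Ndufaf genes) and 3 other names caught by the prefixes, namely Atp5s and the processed pseudogenes Cox6c2 and Ndufs6b. At the read minimum, Cox6c2 was just inside with 12 reads and Ndufa11b just outside with 9.

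The study compared poly-A RNA of macrophages from the outer and inner layers of the aorta. The 3 adventitia libraries came from ApoE-/- mice on the C57BL/6 background, which lack the lipid carrier apolipoprotein E throughout the body, after 28 weeks of high fat diet; 6 mice are named for the group. Their cells came from the adventitia of the whole aorta, abdominal part included, and were sorted as PI- CD64+, that is, live cells with the macrophage receptor CD64. The 2 intima libraries came from C57BL/6 mice with no stated mutation or diet, each from 5 pooled mice; their cells came from the thoracic aorta left after the adventitia was taken off, and were sorted as PI- CD64+ CD11c+ MHC II+, a narrower gate. Layer, ApoE genotype, stated diet, segment, pooling and gate changed together between the groups and cannot be told apart, and age and sex are not given in the sources used here. The labels do not say how the 6 ApoE-/- mice relate to the 3 libraries, so p-values reflect only how these libraries vary among themselves, which may be partly technical.

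The respiratory chain passes electrons from NADH (through complex I) and succinate (through complex II) by way of ubiquinone to complex III, cytochrome c and complex IV, and the proton gradient this builds drives ATP synthase. A few catalytic subunits of complexes I, III and IV and part of the ATP synthase channel are encoded in mitochondrial DNA, while all of complex II and most other subunits are encoded in the nucleus. In macrophages, the balance between oxidative phosphorylation and glycolysis is known to shift with activation, and succinate oxidation at complex II is a studied part of that shift.

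The libraries held 3941381, 10076142 and 10054377 reads in adventitia and 14970204 and 20806925 in intima. A read was found for 23289 to 25738 genes in the adventitia libraries and for 17489 and 16374 in the deeper intima libraries. Apoe itself, given as a check of the labels, lay at 10.9 to 18.2 CPM (read counts scaled to library size, here with TMM factors) in the ApoE-/- libraries and at 5563 and 4409 CPM in intima. The 10 macrophage markers summed to 20473 to 32034 CPM in adventitia and to 29852 and 21612 CPM in intima. Sums of endothelial, smooth muscle and fibroblast markers moved with the groups, and sums of other cell types did not. T, NK and B cell markers summed to 6.13 to 40.2 CPM in adventitia and to 25.6 and 61.5 CPM in intima. Neutrophil markers summed to 49.7 to 91.5 CPM and to 5.25 and 87.5 CPM. For adipocyte markers the sums were 8.75 to 12.2 CPM and 27.9 and 0.403 CPM. Cardiac and skeletal muscle markers are given below. Endothelial markers summed to 32.5 to 44.4 CPM in adventitia and to 847 and 977 CPM in intima, smooth muscle markers to 4.47 to 11.8 CPM and to 318 and 110 CPM, and fibroblast markers to 645 to 1564 CPM and to 357 and 296 CPM. By the edgeR test over all genes, 4 of 10 endothelial markers (Pecam1, Vwf, Esam, Emcn) and 1 of 10 smooth muscle markers (Tagln) were called higher in intima, and 2 of 10 fibroblast markers (Lum, Ogn) lower. The markers did not all go one way: the endothelial marker Kdr lay at 1.09 to 1.81 CPM in adventitia and at 0.235 and 0.0504 CPM in intima, and the smooth muscle marker Myh11 at 0.666 to 1.401 CPM and at 0.470 and 0 CPM. The smooth muscle markers Des, Synpo2 and Actg2, at or under 1.75 CPM in every library, also lay lower in intima and were too low to be tested. Tagln and Acta2 made up most of the smooth muscle sum, at 124 and 171 CPM in intima replicate 1. Of the 10 fibroblast markers, 5 lay wholly below adventitia in intima and 5 overlapped. Among the latter, Mfap5 had a point estimate above 0, at 15.6 to 46.9 CPM in adventitia and 43.0 and 60.6 CPM in intima. The part of these cells in the results below was not tested. In bulk RNA, fewer cells of a type and less RNA per cell cannot be told apart.

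Between intima and adventitia, 1 member of the chain was called: Uqcrc1 was higher in intima, and 0 members were called lower. The values of the 2 groups overlapped for 56 of 90 tested members, beside 7922 of 13408 tested genes. The edgeR quasi-likelihood test on counts used Benjamini-Hochberg adjustment over 13408 genes and a call at an adjusted p under 0.05. It could be run on 90 of the 93 members. Cox6c2 and Ndufs6b had too few reads. Cox4i2 did not pass the filter, with 197 of its 201 reads in intima replicate 1. Over all tested genes, 0.522% were called higher and 0.149% lower, or 0.671% in either direction, so 1 of 90 is a share near the background. At an unadjusted p under 0.05 the edgeR test put 7 members higher and 6 lower, against 8.16% and 14.3% of all tested genes; DESeq2 called 1 member higher and 4 lower, against 4.04% and 5.86%, and limma voom called 1 higher and 2 lower, against 1.6% and 4.66%. The values of the intima libraries lay wholly above the adventitia values for 12 members, beside 17.7% of all tested genes, and wholly below for 22 members, beside 23.2%. Point estimates were higher in intima for 37 of 90 members, or 41.1%, and for 53.4% of all tested genes. The median log2 difference (intima minus adventitia) was -0.33 for the members and 0.14 for all tested genes. Without intima replicate 1 it was -0.92 for the members, and without intima replicate 2 it was 0.12, against -0.54 and -0.62 for all tested genes.

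The intima libraries differed from each other. Members took 1.42, 1.35 and 1.35% of the reads in adventitia, 1.33% in intima replicate 1 and 1.01% in intima replicate 2. In intima replicate 2, 34 of 90 tested members lay more than 2-fold below intima replicate 1, beside 23.4% of all tested genes, and 9 lay more than 2-fold above, beside 29.2%. The median log2 ratio of intima replicate 2 to replicate 1 was -0.78 for the members and 0.00 for all tested genes. Levels per length (RPKM, reads per kilobase of gene model scaled to library size) were summed over each complex with the TMM-scaled library sizes. The summed RPKM of complex I was 5991, 6089 and 6464 in adventitia and 6618 and 3304 in intima, and that of complex IV was 2648, 2614 and 2602 against 3004 and 1441. For complex III the summed RPKM was 1369, 1546 and 1503 against 1398 and 885, and for complex V 2059, 2110 and 1914 against 2038 and 1351. In these 4 complexes intima replicate 1 was within or above the adventitia range and intima replicate 2 was below it. Complex II differed in pattern, at 193, 297 and 398 RPKM in adventitia and 728 and 546 in intima, both intima libraries being above all adventitia libraries. With library size alone, as in the deposited RPKM, both intima sums of complexes I, III, IV and V lay below all adventitia sums, and those of complex II stayed above. A sum of RPKM is carried by the short, abundant subunits.

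**Figure D1:**
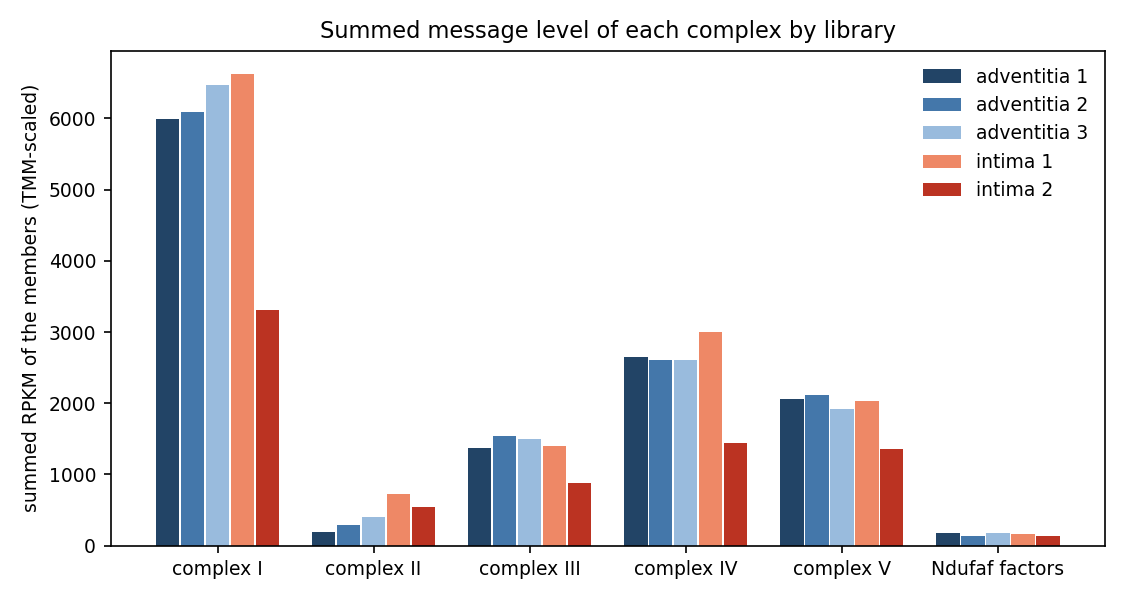
Bars show the summed RPKM of the members of each complex, with TMM-scaled library sizes, in the 3 adventitia and 2 intima libraries. Complex II is the group in which both intima libraries (728 and 546) lie above all adventitia libraries (193 to 398); in complexes I, III, IV and V intima replicate 2 lies below all adventitia libraries, and with library size alone intima replicate 1 lies below them too.

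In complex I, which oxidises NADH, none of the 38 members was called. Ndufa4 and Ndufa4l2 are grouped here by symbol, although the Ndufa4 protein is known as a complex IV subunit. The 7 core subunits, which hold the flavin and iron-sulphur centres that carry the electrons, had a median log2 difference of 1.03, with 5 above 0 and 2 below. The 31 accessory subunits, which surround and stabilise the core, had a median of -0.50, with 9 above 0 and 22 below. Ndufv1, which binds NADH and the flavin, had 20.6, 26.7 and 21.9 CPM in adventitia and 22.8 and 169 CPM in intima. Only intima replicate 2 stood apart and the groups overlapped (log2 difference 2.05, SE 0.80, adjusted p 0.161 by edgeR, and 0.0471 without intima replicate 1). Ndufa9, an accessory subunit near the quinone site, had 46.2, 38.6 and 132 CPM in adventitia and 262 and 226 in intima, with both intima libraries higher and no overlap (log2 difference 1.75, SE 0.58, adjusted p 0.116 by edgeR). Ndufs7 and Ndufs8, iron-sulphur subunits on the path to ubiquinone, were spread within adventitia: Ndufs8 lay at 72.6, 62.1 and 258 CPM there and at 389.5 and 184 CPM in intima, and the groups overlapped. Ndufs1, the largest iron-sulphur subunit, was nearly level at 40.5, 42.3 and 42.4 CPM in adventitia and 41.4 CPM in intima replicate 1, and was at 14.9 CPM in intima replicate 2.

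The accessory subunits of complex I included 8 whose intima values lay wholly below adventitia and 2 wholly above, beside 23.2% and 17.7% of all tested genes. Ndufa6, the complex I member with the highest mean RPKM over the libraries, had 412, 429.6 and 388 CPM in adventitia and 288 and 135 CPM in intima. Its log2 difference was -0.96 (SE 0.46, adjusted p 0.241 by edgeR), and both intima values lay below all adventitia values. Ndufc1, a short membrane-arm subunit, had 231, 164 and 169 CPM against 99.7 and 40.5 CPM, again without overlap (log2 difference -1.42, SE 0.54, adjusted p 0.153 by edgeR). Ndufb6, another membrane-arm subunit, had 62.1, 93.9 and 85.2 CPM against 96.3 and 15.1 CPM, so that the intima libraries lay on either side of the adventitia range. Ndufa10, a larger accessory subunit, showed the reverse split, at 59.9, 69.3 and 57.5 CPM against 47.6 and 129.7 CPM. The exons of Ndufb6 overlap those of Smim27 on the other strand.

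Complex II, succinate dehydrogenase, links the tricarboxylic acid cycle to the chain. The point estimates of all 4 subunits were higher in intima, with a median log2 difference of 1.16, and none passed the edgeR threshold. The direction was the same for each of the 4 under every one of the 15 alternative fits. Sdha, the flavoprotein that oxidises succinate, had 116, 153 and 112 CPM in adventitia and 247 and 555 in intima (log2 difference 1.66, SE 0.47, adjusted p 0.103 by edgeR). Sdhb, the iron-sulphur subunit, had 116, 163 and 230.3 CPM in adventitia and 617 and 362 in intima (log2 difference 1.53, SE 0.46, adjusted p 0.112 by edgeR). For both genes the intima values lay above all adventitia values, with Sdha highest in intima replicate 2 and Sdhb highest in replicate 1. Sdhc, a membrane anchor with the quinone site, had 104, 118 and 131 CPM against 187 and 152, a narrow gap (log2 difference 0.53, SE 0.45). Sdhd, the other anchor, had 102, 191 and 290.4 CPM against 427 and 249.7, and its groups overlapped (log2 difference 0.80, SE 0.51). Without intima replicate 1, Sdha passed the edgeR threshold with an adjusted p of 0.0454, in a fit that takes the spread from the adventitia libraries alone.

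In complex III, which moves electrons from ubiquinol to cytochrome c, Uqcrc1 rose. Uqcrc1 encodes core protein I, a peptidase-related subunit on the matrix side that carries no redox centre. It lies on mouse chromosome 9 (GRCm38, chr9:108936648-108949640). It had 19.0, 27.7 and 25.5 CPM in adventitia and 175 and 366 CPM in intima, and the lowest intima library was above the highest adventitia library. The log2 difference was 3.49 (SE 0.53), an 11.2-fold difference, with an adjusted p of 0.0113 by edgeR. The call was lost without adventitia replicate 1 (adjusted p 0.166 by edgeR) and without adventitia replicate 3 (0.0651), and held in the other 13 alternatives. Its partner core protein, Uqcrc2, had 46.2, 51.0 and 87.4 CPM in adventitia and 43.9 and 163 in intima, with overlapping groups (log2 difference 0.75, SE 0.65). For the redox subunits the groups overlapped. Cyc1, cytochrome c1, had 14.9, 26.0 and 11.01 CPM against 19.99 and 25.9, and Uqcrfs1, the Rieske iron-sulphur protein, had 78.3, 45.2 and 37.0 CPM against 64.4 and 21.0. Uqcr10, a small subunit with the highest mean RPKM of the complex, had 232, 346 and 343 CPM against 266 and 139.9, and its groups overlapped. Uqcrq, which lies close to cytochrome b, had 367, 394 and 348 CPM against 244 and 163 without overlap (log2 difference -0.86, SE 0.42, adjusted p 0.251 by edgeR). Uqcrb, a ubiquinone-binding subunit, was level in all but 1 library, at 116, 105 and 100.2 CPM against 112 and 27.2. On the deposited RPKM scale, which allows levels of different genes to be compared, Uqcrc1 lay at 13.3, 17.4 and 15.3 in adventitia, far under the 461, 618 and 584 of Uqcr10, and at 90.0 and 211 in intima, where Uqcr10 lay at 388 and 229.

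Promoters were set beside these values because respiratory genes are known targets of the transcription factors NRF1, GABPA (an ETS factor) and YY1. Windows of 300 bases, from 250 before to 50 after the start of the gene, were available for 72 members (77 windows, RefSeq, GRCm38.p6). Both strands were searched for an NRF1 motif (GCGCA, any base, then GCGC), an ETS motif (CCGGAAG) and a YY1 motif (AAGATGGC). The NRF1 motif was present in 26.0% of member windows and 6.38% of 21263 protein-coding windows, the ETS motif in 23.4% and 11.6%, and the YY1 motif in 13.0% and 3.05%. A GC box (GGGCGG) was present in 42.9% and 46.2%, and a TATA box (TATAAA) in 7.79% and 12.6%. No member window had ETS and YY1 matches that shared letters. At least 1 of the 3 factor motifs was found in 41 member windows, or 53.2%, and in 18.9% of all windows. The windows are printed for the called gene (Uqcrc1), a complex II gene that lay above adventitia (Sdha), a short ATP synthase subunit that lay below (Atp5k) and an assembly factor with no intima read (Ndufaf5), with NRF1 and ETS matches in capitals, 5′ to 3′ on the strand of the gene.
Uqcrc1: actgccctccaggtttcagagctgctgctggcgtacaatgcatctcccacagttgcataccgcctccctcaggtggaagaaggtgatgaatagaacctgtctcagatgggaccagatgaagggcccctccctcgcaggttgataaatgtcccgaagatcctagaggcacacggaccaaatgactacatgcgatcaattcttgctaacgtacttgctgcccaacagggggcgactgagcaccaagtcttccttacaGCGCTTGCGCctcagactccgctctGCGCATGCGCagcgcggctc
Sdha: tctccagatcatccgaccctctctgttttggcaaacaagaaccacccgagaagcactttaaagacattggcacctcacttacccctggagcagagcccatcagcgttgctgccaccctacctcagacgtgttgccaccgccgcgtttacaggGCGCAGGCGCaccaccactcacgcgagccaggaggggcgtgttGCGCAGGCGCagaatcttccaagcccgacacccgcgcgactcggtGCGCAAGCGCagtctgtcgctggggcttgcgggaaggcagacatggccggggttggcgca
Atp5k: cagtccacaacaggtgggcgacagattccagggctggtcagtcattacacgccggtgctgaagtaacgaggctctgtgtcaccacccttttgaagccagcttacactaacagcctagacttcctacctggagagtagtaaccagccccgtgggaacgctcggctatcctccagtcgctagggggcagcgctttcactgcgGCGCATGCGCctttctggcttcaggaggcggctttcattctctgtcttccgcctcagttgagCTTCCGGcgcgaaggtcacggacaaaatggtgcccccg
Ndufaf5: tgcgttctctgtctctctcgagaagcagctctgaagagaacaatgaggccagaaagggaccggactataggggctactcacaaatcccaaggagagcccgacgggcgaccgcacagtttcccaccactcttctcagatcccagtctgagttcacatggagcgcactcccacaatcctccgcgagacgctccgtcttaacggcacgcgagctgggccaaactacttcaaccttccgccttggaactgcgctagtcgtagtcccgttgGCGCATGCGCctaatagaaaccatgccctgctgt
The window of Uqcrc1 (chr9:108936398-108936697, plus strand) held 2 NRF1 matches and that of Sdha (chr13:74350191-74350490, minus strand) held 3. The window of Atp5k (chr5:108434350-108434649, minus strand) held 1 NRF1 and 1 ETS match, and that of Ndufaf5 (chr2:140170396-140170695, plus strand) held 1 NRF1 match. The printed windows are examples that each held an NRF1 match, while 20 of the 77 member windows had one. The windows of Sdhb and Atp5b, which lay above adventitia, and of Ndufc1 and Cox7a1, which lay below, had none. Whether the motif goes with the direction of the difference was not tested. A match is a description of the letters and not of binding.

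In complex IV, cytochrome c oxidase, no member was called, the median log2 difference was -0.52, and 5 of 14 tested members lay above 0. Cox4i1, the ubiquitous form of the largest nuclear subunit, had 496, 555 and 597 CPM in adventitia and 1119 and 551 CPM in intima, so that intima replicate 1 stood above all other libraries and replicate 2 lay inside the adventitia range. Cox6b1, a small subunit facing the intermembrane space with the highest mean RPKM of the complex, had 458, 428 and 462 CPM in adventitia and 461 and 117 CPM in intima, where only replicate 2 was low. Among the tested members of this complex, the largest gap between the intima libraries was that of Cox7c, at 20.8, 24.0 and 20.02 CPM in adventitia and 21.6 and 3.88 in intima. Cox6c, another small subunit, lay lower in both intima libraries, at 332, 286 and 256 CPM against 213 and 102 (log2 difference -0.89, SE 0.47, adjusted p 0.291 by edgeR). The point estimates of the ubiquitous small subunits Cox7a2, Cox7b and Cox8a were -0.43, -0.61 and -0.40 on the log2 scale, and those of Cox6a1 and of Cox7a2l, which helps join complexes III and IV, were 0.12 and 0.36; the groups overlapped for each of these 5.

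Several complex IV subunits exist as a ubiquitous form and a tissue-restricted form. Cox7a1, the heart and skeletal muscle form, had 34.3, 10.6 and 18.9 CPM in adventitia and 3.14 and 2.37 in intima, so that both intima libraries lay below all adventitia libraries (log2 difference -2.95, SE 1.41, adjusted p 0.244 by edgeR). It made up 30.5, 7.70 and 13.5% of the summed RPKM of Cox7a1 and Cox7a2 in adventitia, and 2.69 and 4.72% in intima. DESeq2 called Cox7a1 lower and edgeR did not. Cox6a2, the muscle form of Cox6a, had 5, 64 and 2 reads in adventitia and 0 in intima, a level at least 30.8-fold lower with 3 reads in the intima group as the floor; 1 adventitia library held most of these reads, and the exons of Cox6a2 overlap Itgad on the other strand. The number of all tested genes with no read in each intima library is given with the assembly factors below. Cox6b2, the testis form of Cox6b, was low outside adventitia replicate 1, at 24.3, 2.47 and 2.60 CPM against 3.45 and 2.92. Cox4i2, the form known from lung and hypoxia-exposed cells, had 1, 2 and 0 reads in adventitia and 197 and 1 in intima. Its intima signal came from replicate 1 alone, where it was 2.64% of the summed RPKM of the Cox4 pair. The ratio of group levels was 50.7 with a 95% Poisson interval of 17.4 to 246, which covers counting error only. Markers of cardiac and skeletal muscle summed to 7.61 to 10.5 CPM in adventitia and to 0.862 and 46.8 CPM in intima. Tnnt2, at 42.0 CPM, and Tnni3, at 4.48 CPM, made up most of the sum in intima replicate 2. Myh1, Myh4, Myh6, Myh7, Myl2 and Acta1, all low, lay lower in intima than in adventitia. The part of muscle cells in these isoform levels was not tested.

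In complex V, the ATP synthase, no member was called and the median log2 difference was -0.05. Point estimates had opposite signs in its sectors, a contrast that was not tested. The 5 genes of the F1 head and central stalk had a median of 0.49 with 4 above 0. Of these 5, Atp5a1 and Atp5b were above 0 in all 16 fits, Atp5c1 in 15, Atp5d in 8 and Atp5e in 1. The 4 small membrane subunits Atp5j2, Atp5k, Atp5l and Atp5mpl had a median of -0.98 with all 4 below 0 under every alternative fit. Atp5a1, the alpha subunit of the head, had 123, 184 and 142 CPM in adventitia and 203 and 725 in intima (log2 difference 1.63, SE 0.53, adjusted p 0.116 by edgeR, and 0.0336 without intima replicate 1). Atp5b, the catalytic beta subunit, had 177, 136 and 233 CPM against 282 and 668 (log2 difference 1.38, SE 0.48, adjusted p 0.127 by edgeR). For both, intima lay above adventitia in both libraries and intima replicate 2 was far above replicate 1. Atp5k, subunit e of the membrane sector, ran the other way at 261, 211 and 187 CPM against 149.7 and 55.5 (log2 difference -1.10, SE 0.53, adjusted p 0.244 by edgeR). Atp5mpl, a very small proteolipid with the highest mean RPKM of the complex, had 211, 208 and 139 CPM in adventitia and 151 and 42.0 in intima, with overlap. Atp5l, subunit g of the membrane sector, had 51.4, 66.7 and 45.5 CPM against 44.99 and 9.21, again lowest in intima replicate 2. Of the 3 genes for the c-ring, the proton-carrying rotor, Atp5g3 gave 92.9 to 97.0% of their summed RPKM in every library. RPKM divides by the gene model, of 4912 bases for Atp5g1 and 2181 for Atp5g3. Atp5g2 had 43 reads over the 5 libraries, and its exons overlap Mir688 on the same strand. The part of read counting in this share was not tested.

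None of the 8 complex I assembly factors, which help build the enzyme and are not part of it, was called, and 3 had point estimates above 0. Ndufaf2, the one with the highest mean RPKM, had 60.8, 46.1 and 24.2 CPM in adventitia and 22.3 and 19.3 in intima. Ndufaf4 was uneven within both groups, at 15.1, 6.76 and 37.1 CPM against 4.31 and 21.8. Ndufaf5, which modifies a core subunit early in assembly, had 17, 45 and 131 reads in adventitia and 0 in both intima libraries, at least 83.7-fold lower taking 3 reads in the intima group as the floor. Atp5s, a factor-B-like protein associated with ATP synthase, had 35, 156 and 106 reads and again 0 in intima, at least 129-fold lower. Zero counts were common in intima. Of the 13408 tested genes, 1309 and 1445 had no read in intima replicates 1 and 2, against 74 to 223 in the adventitia libraries. Of the 93 members, 3 and 4 had none in intima, Cox6a2 included, against 1 to 2 in adventitia. The adjusted p-values of Ndufaf5 and Atp5s were 0.107 and 0.0904 by edgeR, while DESeq2 and limma voom each called both lower. Ndufaf1, which acts on the membrane arm, ran the other way, with 0, 4.38 and 11.01 CPM in adventitia and 33.4 and 48.5 CPM in intima (log2 difference 2.98, SE 1.48, adjusted p 0.259 by edgeR). Ndufaf7, a methyltransferase for a core subunit, had 0.656, 14.1 and 16.8 CPM against 74.5 and 31.7 (log2 difference 2.33, SE 1.16, adjusted p 0.259 by edgeR). For Ndufaf1 and Ndufaf7, both intima libraries lay above all adventitia libraries. Ndufa4l2, a hypoxia-inducible relative of Ndufa4, had 1, 67 and 109 reads in adventitia and 2 and 0 in intima, a ratio of 115 with a 95% Poisson interval of 31.9 to 951; DESeq2 called it lower, edgeR did not, and its exons overlap Shmt2 on the other strand.

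**Figure D2:**
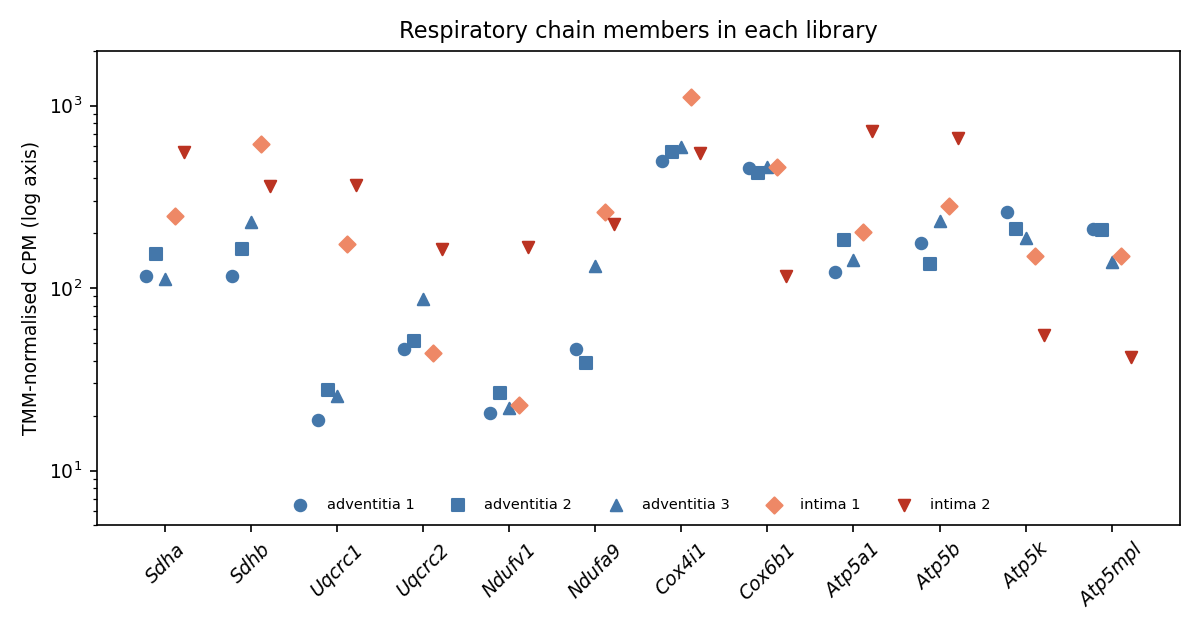
TMM-normalised CPM (log axis) of 12 members in each of the 5 libraries, with adventitia and intima as separate symbols. Uqcrc1 shows the called difference (19.0 to 27.7 CPM against 175 and 366), and for several subunits such as Ndufv1 (22.8 and 169 CPM) the intima libraries lie far apart.

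Across the complexes, the difference between the groups was ordered by the length of the protein-coding sequence (the longest in GENCODE M21, 156 to 2181 bases for the members). These length classes were chosen after the values were seen. The 23 members of up to 300 coding bases all had point estimates below 0, with a median log2 difference of -0.76. Of these, 15 were below 0 under every alternative fit that tested them. The 10 members of more than 1200 coding bases had a median of 1.51, with 8 above 0, of which 7 were above 0 under every fit that tested them. Ndufs1 and Ndufv3 were below 0. Between these, the medians were -0.50 for 25 members of 300 to 450 bases, 0.13 for 21 members of 450 to 750 bases and 0.51 for 11 members of 750 to 1200 bases. Among all tested genes the same classes, from short to long, had medians of -0.43, -0.04, 0.21, 0.46 and 0.13, with 151 of 229 genes of up to 300 bases below 0. Genes of up to 300 bases as a whole thus lay lower too, mainly in intima replicate 2. Their medians against the adventitia mean were -0.09 in intima replicate 1 and -0.82 in replicate 2. For all tested genes of 300 to 450 bases they were 0.135 and -0.42. Genes over 1200 bases as a whole did not lie as high as the long members, but they include genes longer than the longest member.

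Spearman's rho between coding length and the log2 difference over the 90 members was 0.48 for intima replicate 1 and 0.64 for intima replicate 2, each against the mean of the same 3 adventitia libraries. Over 12412 tested genes with a coding length it was -0.08 and -0.05, and over the 8822 genes no longer than the longest member it was -0.07 and 0.04. Without the members over 1200 bases it was 0.45 and 0.59 over 80 members, and without those over 750 bases 0.43 and 0.59 over 69. All tested genes under the same limits gave -0.02 and 0.14 up to 1200 bases and 0.02 and 0.13 up to 750 bases. In complex I it was 0.49 and 0.68 over 38 members, in complex III 0.53 and 0.67 over 9, in complex IV 0.31 and 0.68 over 14, and in complex V 0.60 and 0.78 over 16. Members share libraries and length goes with subunit role, so these are descriptions. The lengths of the gene models in the deposited tables, which include untranslated exons, gave 0.26 and 0.45 over the 90 members.

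**Figure D3:**
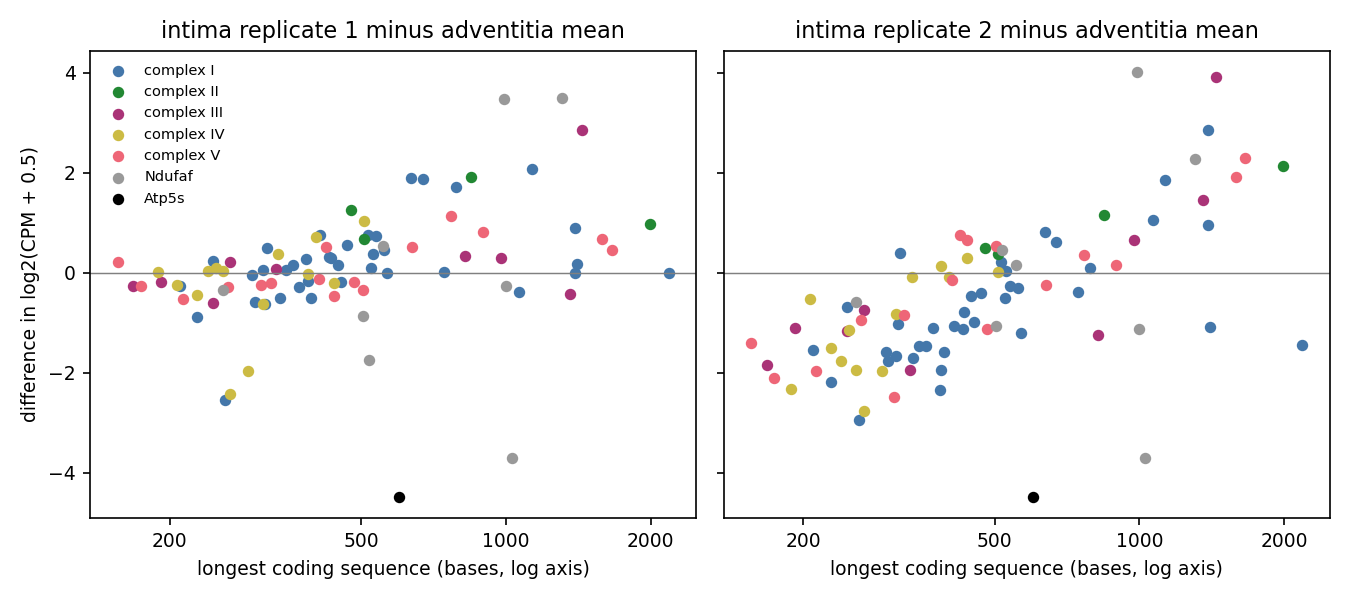
Difference in log2(CPM + 0.5) of each tested member from the adventitia mean, against coding length in bases (log axis), with 1 panel for each intima library and 1 colour for each complex. Short and long members lie further apart in intima replicate 2: members of up to 300 bases and of more than 1200 bases have medians of -0.27 and 0.56 in intima replicate 1 and of -1.58 and 2.02 in replicate 2.

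**Figure D4:**
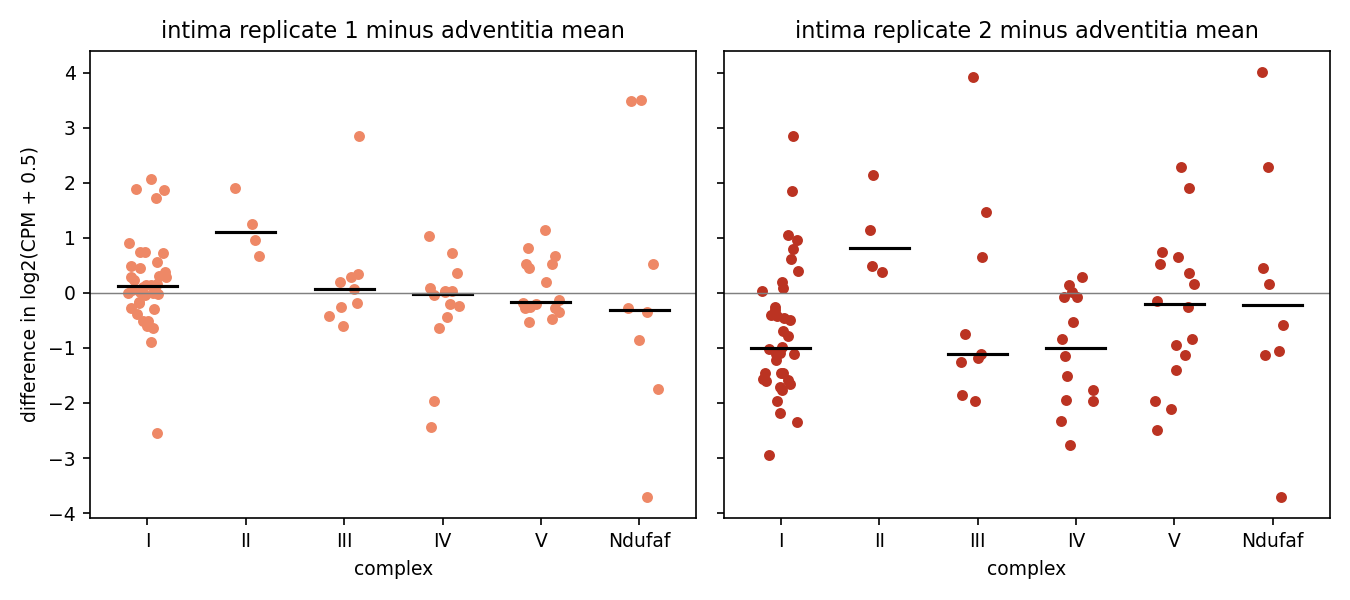
Difference in log2(CPM + 0.5) of each tested member from the adventitia mean, by complex, with 1 panel for each intima library and a black line at each median. The complex II medians lie above 0 in both panels (1.11 and 0.81), while the complex IV median is -0.02 in intima replicate 1 and -0.99 in replicate 2.

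The other genes of the pathway were read from the same fit. None of the 14 tricarboxylic acid cycle genes was called, all 14 point estimates were above 0 (median log2 difference 1.12), and the ranges of 6 lay wholly above adventitia, beside 17.7% of all tested genes. Mdh2, the malate dehydrogenase, had 105, 78.3 and 300.2 CPM in adventitia and 465 and 641 in intima, and Idh3g, a regulatory subunit of isocitrate dehydrogenase, had 47.3, 56.7 and 95.2 CPM against 187 and 181. These 2 genes were picked as examples after their values were seen, and neither passed the edgeR threshold (adjusted p 0.113 and 0.126). Of the 13 subunits encoded in mitochondrial DNA, 5 (mt-Co2, mt-Co3, mt-Atp6, mt-Atp8 and mt-Nd4l) are listed at 0 in every library, and the 8 tested had a median of -0.55 with 0 called. For assembly genes of complex IV, 18 were tested with 0 called and a median of 0.32, and for those of complexes II, III and V, 13 were tested with 0 called and a median of 0.17. The 75 tested mitochondrial ribosome genes had a median of 0.48 with 51 above 0 and 0 called. Of the 86 tested genes with Rpl or Rps names, mostly of the cytosolic ribosome, 0 were called and the median was -0.24.

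The transcription regulators of the chain included none called among 10 tested. Tfam, which packages and transcribes mitochondrial DNA, had 45.3, 16.3 and 22.4 CPM in adventitia and 0.157 and 1.46 in intima, with both intima libraries low (log2 difference -5.08, adjusted p 0.113 by edgeR). Ppargc1b, a coactivator of respiratory genes, had 14.4, 4.76 and 4.90 CPM in adventitia and 0 and 0.151 in intima, again without overlap (adjusted p 0.139 by edgeR). Nrf1, the factor of the motif above, had 14.4, 31.7 and 25.02 CPM in adventitia but 0.549 and 61.6 in intima, on either side of the adventitia range. Esrra, a nuclear receptor for the same genes, was split the opposite way in intima, at 19.6 and 0.101 CPM against 6.00 to 17.1 CPM in adventitia. Gabpa, at 30.2 to 80.3 CPM in adventitia and 38.4 and 27.5 in intima, overlapped. Ppargc1a was at most 0.666 CPM in adventitia and 0.157 and 4.78 in intima. It was not tested, as it reached the count minimum in intima replicate 2 alone, with 95 reads.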

How the data were processed

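Poly-A RNA from sorted cells was made into cDNA with a low-input SMARTer kit, amplified by PCR and, per the labels' protocols, read from 1 end on a HiSeq-3000. Subread, featureCounts 1.4.5, STAR 2.0.4b and GRCm38 are named in the submitters' processing notes; the annotation release and strand setting are not given in the sources used here, so reads of overlapping genes cannot be told apart (32 members overlap the exons of another gene). The deposited files hold, per the file headers, whole read counts, CPM and RPKM for 41388 genes; recomputing the deposited CPM and RPKM from the counts gave 0 mismatches at a tolerance of 1e-06. Deposited RPKM served for levels between genes, RPKM with TMM-scaled library sizes for sums over a complex, and TMM-normalised CPM for differences.

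Counts of all genes were tested with edgeR 4.0.16 in R 4.3.3 (glmQLFit and glmQLFTest) after filterByExpr (minimum count 10, minimum total 15) with TMM factors, no covariates, and Benjamini-Hochberg adjustment over all genes tested; a call needs an adjusted p under 0.05. Library differences used log2 of CPM plus 0.5. Alternatives were other scalings, a robust fit, no filter, 1 CPM in every library, DESeq2 1.42.0, limma 3.58.1 voom, thinned counts, a replicate block and each library left out. A lone intima library is taken to have the spread of adventitia. The test was tested on simulated data. A floor of 3 reads is 0.144 to 0.761 CPM per library; floors and intervals (95%) reflect counting error alone, as reads amplified by PCR, lacking molecular identifiers, do not each stand for 1 molecule.

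The members, gene lists and tests were chosen with earlier results of these data known. Genes named are every called member, the most abundant member and the largest difference in each direction of each complex, all complex II genes, Cyc1, isoform pairs, members with no read in a group, those with the most unequal intima libraries, and regulators; Ndufa9, Ndufs1, Ndufs7, Ndufs8, Ndufc1, Uqcrfs1, Atp5b, Atp5j2, Ndufaf7 and Ndufv3 were added after their values were seen. Symbols came from a reference table and were found for 40254 IDs, coordinates from the files, coding lengths from GENCODE M21, and promoter windows from RefSeq (GRCm38.p6), matched by symbol. Tables were made with Python 3.11.15 and pandas 2.3.3.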

Additional observations from a re-analysis of the deposited data

How the results depend on the processing

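The call of Uqcrc1 held in 13 of 15 alternatives, and of 40 named members 23 kept the sign of their difference in every alternative that tested them. Of the 16 fits, main fit included, 12 tested Cox6a2, 13 tested Ndufa4l2, and 15 tested each of Atp5s, Ndufaf1 and Ndufaf5. The members' median log2 difference, -0.33, was -0.81 with upper-quartile scaling and -0.70 with thinned counts, and ranged from -0.92 to 0.12 with a library left out; the median of all genes itself moved from 0.14 to -0.35 with upper-quartile scaling and to -0.09 with library size alone. Relative to all genes, the members' median was -0.47, against 1.76 with no filter, 0.0149 with the replicate block and -0.55 to 0.74 with a library left out. Members called higher numbered 1, against 2 with the replicate block (Ndufa9 added) and 0 to 4 with a library left out (Atp5a1, Ndufv1 and Sdha added without intima replicate 1). Members called lower numbered 0, against 1 with no filter, 4 with DESeq2 and 2 with limma voom. All genes called higher numbered 70, against 46 with upper-quartile scaling, 312 with no filter, 500 with DESeq2, 214 with limma voom, 133 with the replicate block and 9 to 229 with a library left out. All genes called lower numbered 20, against 34 with library size alone, 43 at 1 CPM in every library, 50 with the replicate block, 74 with no filter, 725 with DESeq2, 625 with limma voom and 1 to 160 with a library left out. The causes were not tested. The replicate numbers do not pair the samples, as the groups came from different mice. Same-numbered libraries had deviations from their group means correlated at 0.035 and 0.0057 over genes. These values cannot decide on pairing, since the deviations of the 2 intima libraries are opposite by construction.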
